A study of Sus scrofa with 20 samples.

Results

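The genes PDGFRA, PI16, DPP4, CD34, THY1, CD55, FAP, TCF21, ENG and NT5E, which are used to mark the stromal progenitors of adipose tissue, were followed by RNA-seq in backfat and liver of the pig. They were chosen by name, as a list of known markers, and not by their values. Of the 10 markers, 8 have a pig Ensembl identifier in the gene names used here, and THY1 and CD55 do not, so the data below are for 8 of the 31907 genes in the table of counts. All 8 passed the filter on low counts, TCF21 through its liver libraries alone. Backfat and liver were collected from 5 boars of Nanchukmacdon, a Korean breed made from the Jeju native black pig, and gave 5 RNA-seq libraries per tissue. The labels give every animal as wild type, in a normal state and 22 months old, while the methods of the study give a different average age, and no treatment was applied. Both tissues were sampled in bulk, without sorting, so each value is an average over all cells of a piece of tissue. Libraries are named by tissue and by the boar number that the columns of the table carry (65, 67, 69, 71 and 72).

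Fat cells are renewed from fibroblast-like cells that lie in the connective tissue and along the vessels of the fat depot. These progenitors carry the receptor PDGFRA and the sialomucin CD34, and they are usually divided into an early interstitial state, marked by PI16, DPP4 and CD55, and a state committed to fat. THY1, ENG and NT5E are the surface proteins CD90, CD105 and CD73 by which cultured mesenchymal stromal cells are defined, FAP is a serine protease of activated fibroblasts, and TCF21 is a transcription factor of visceral mesenchyme. None of them is restricted to fat. In liver, DPP4 lies on the bile canaliculi of hepatocytes, ENG on endothelium, and PDGFRA and TCF21 in the stroma, hepatic stellate cells included.

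The genes lie on chromosomes 1, 7, 8, 9 and 15 of Sscrofa11.1. TCF21, NT5E and ENG share chromosome 1 without being neighbours, while DPP4 and FAP, which are related serine proteases, lie close together on chromosome 15. The 250 bases before the annotated start of 4 of the genes are shown, taken from the RefSeq annotation of Sscrofa11.1 and written 5′ to 3′ on the strand of the gene with every CpG in capitals. FAP and DPP4 are shown because these neighbours were high in opposite tissues, TCF21 because it was at or near 0 counts in backfat, and NT5E because it has the most CpGs of the 8.
FAP chr15:68902417-68902666 (minus strand): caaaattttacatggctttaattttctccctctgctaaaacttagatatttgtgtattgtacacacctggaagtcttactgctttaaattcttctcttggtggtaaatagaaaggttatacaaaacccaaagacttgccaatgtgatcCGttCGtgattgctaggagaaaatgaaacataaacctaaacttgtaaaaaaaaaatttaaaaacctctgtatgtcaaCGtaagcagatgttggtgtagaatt
DPP4 chr15:68742962-68743211 (minus strand): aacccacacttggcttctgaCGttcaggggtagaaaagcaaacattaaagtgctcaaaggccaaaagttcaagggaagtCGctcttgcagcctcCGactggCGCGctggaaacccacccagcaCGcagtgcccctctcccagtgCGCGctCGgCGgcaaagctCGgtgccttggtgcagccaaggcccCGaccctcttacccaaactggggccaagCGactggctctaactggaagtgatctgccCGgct
TCF21 chr1:29978274-29978523 (minus strand): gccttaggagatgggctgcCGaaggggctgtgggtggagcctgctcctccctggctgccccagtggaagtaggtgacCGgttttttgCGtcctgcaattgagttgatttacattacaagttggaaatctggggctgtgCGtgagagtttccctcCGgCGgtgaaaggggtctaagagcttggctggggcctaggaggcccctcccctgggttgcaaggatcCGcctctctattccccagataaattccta
NT5E chr1:54400536-54400785 (plus strand): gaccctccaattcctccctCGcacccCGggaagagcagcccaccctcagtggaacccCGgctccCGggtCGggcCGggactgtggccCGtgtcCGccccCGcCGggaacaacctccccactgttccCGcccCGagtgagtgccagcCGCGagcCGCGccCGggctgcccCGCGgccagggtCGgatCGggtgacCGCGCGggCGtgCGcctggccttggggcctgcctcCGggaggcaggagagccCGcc

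The FAP window holds 3 CpGs and the DPP4 window 14. TCF21 has 7 CpGs and NT5E 28, against a median of 12 over 19531 windows of the same length, with quartiles of 4 and 22. Of the windows not shown, CD34 has 2 CpGs, PDGFRA and PI16 have 7 each and ENG has 16. The genes called higher in backfat (PDGFRA, CD34 and FAP) had 2 to 7 CpGs in this window, and those called higher in liver (DPP4 and TCF21) had 7 and 14. Short motifs were searched on both strands of the 8 windows. The TATA box TATAAA was found in CD34 alone and is present in 9.86% of all windows. The letters CCAAT were found in PDGFRA, FAP and NT5E (31.5% of all windows), and the GC box GGGCGG in ENG and at 2 places in NT5E (46.4%). The GATA motif AGATAA was found in TCF21 (8.02%), and the AP-1 motif TGANTCA in PDGFRA (5.21%). The E-box CANNTG, the kind of site that TCF21 and its partners bind, was found in PDGFRA, PI16, DPP4, FAP and TCF21, but 61.5% of all windows hold it. These matches describe the letters of the windows only, and methylation of the windows was not analysed here, because the methylation calls used carry no genomic position.

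Between 43820042 and 61772737 reads were assigned to genes per RNA-seq library, with a median of 48502902 in backfat and 48821039 in liver. Levels of single genes are given as CPM, counts scaled to a common library size, after TMM normalization. Sums over marker lists are CPM without TMM. Of 16275 genes tested, 1814 were called higher in backfat and 1819 higher in liver, where a call required an adjusted p no higher than 0.05 together with a log2 fold change that reached 2 in size. The defining genes of each tissue went with its label, since all 12 hepatocyte markers were called higher in liver and 8 of 9 adipocyte markers higher in backfat. Liver 67 differed from the rest of liver. The share of its counts in the 13 mitochondrial protein-coding genes was 44.5%, where the other 9 libraries had 6.38% to 20.2%, its hepatocyte markers summed to 27065 CPM against at least 86008 CPM in the other liver libraries, and its skeletal muscle, red cell, endothelial, mural cell, cholangiocyte and lymphocyte markers were the highest of the 5. Backfat 69 held 767 CPM of hepatocyte markers, against at most 299 CPM in the other backfat libraries. Values without these libraries are given beside the markers and lists whose calls they change.

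Of the 8 markers, 5 were called. PDGFRA, CD34 and FAP were higher in backfat, and DPP4 and TCF21 were higher in liver (quasi-likelihood test of edgeR, with p-values adjusted over all genes tested by the Benjamini-Hochberg method). The background is large: 22.3% of all genes tested were called, 11.1% higher in backfat and 11.2% higher in liver. At the adjusted p alone, without the fold threshold, PI16, NT5E and ENG were added, so that 6 markers were higher in backfat and 2 higher in liver, where 55.0% of all genes passed, 28.0% higher in backfat and 27.0% higher in liver. The 5 called markers were also those in which the 5 backfat and 5 liver libraries did not overlap, as in 42.6% of all genes tested. In each of the 8 markers all 5 boars had the same direction. The median log2 fold change of the 8 was 1.24 (backfat over liver), beside a median near 0 (0.00014) over all genes tested. Scaling by library size alone moved the median of all genes to 0.71 and changed the direction of no marker, which means that differences near that size, such as those of ENG and NT5E, depend on the scaling. In bulk tissue, fewer cells of a type and less RNA per cell cannot be told apart, and this holds for every marker below.

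**Figure D1:**
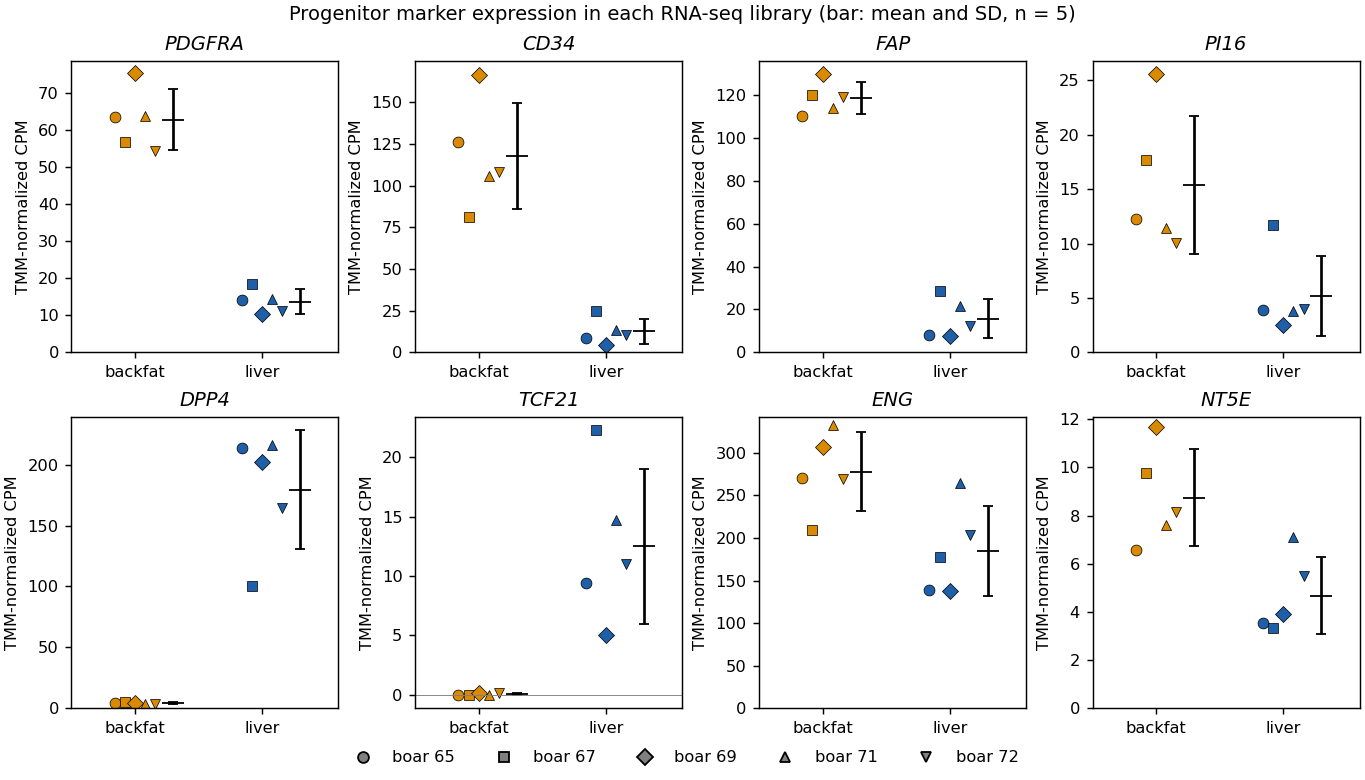
TMM-normalized CPM (y axis, linear, a separate scale for each gene) of the 8 markers in the 5 backfat libraries (orange) and 5 liver libraries (blue); the shape of a point gives the boar, and the black bar is the mean with its SD. PDGFRA, CD34 and FAP lie higher in every backfat library than in any liver library, DPP4 and TCF21 the other way, and the points of PI16, ENG and NT5E overlap.

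PDGFRA, the receptor for PDGF that marks nearly all adipose fibroblasts and progenitors, was about 4.57 times as high in backfat as in liver. Its level was 63.7, 56.9, 75.4, 63.9 and 54.5 CPM in backfat 65, 67, 69, 71 and 72, and 14.2, 18.6, 10.3, 14.4 and 11.3 CPM in the liver of the same boars. The lowest backfat library lay well above the highest liver library. The mean of backfat was 62.9 ± 8.15 CPM and that of liver 13.8 ± 3.25 CPM (SD, n = 5 each), which gave a log2 fold change of 2.19 with a standard error (SE) of 0.19 (adjusted p = 8.1e-07). Although it lies close to the fold threshold of 2, the log2 fold change stayed between 2.09 and 2.92 under all 20 alternatives. Among liver libraries PDGFRA was the steadiest of the 8 markers, with a coefficient of variation (CV) of 23.7%, where the median gene had 33.0%.

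CD34, a sialomucin shared by progenitors, endothelium and blood stem cells, had the largest fold change towards backfat. Backfat 65, 67, 69, 71 and 72 had 126, 81.1, 167, 105.8 and 108 CPM, and liver had 8.85, 25.1, 4.59, 13.6 and 10.7 CPM. Boar 69 held the highest backfat value and the lowest liver value, and liver 67 was the highest of the liver libraries, which still left a wide gap between the tissues. The means were 118 ± 31.8 CPM in backfat and 12.6 ± 7.73 CPM in liver (SD, n = 5 each), with a log2 fold change of 3.23 (SE 0.40, adjusted p = 2.0e-05). Without liver 67 the mean in liver was 9.44 ± 3.78 CPM (SD, n = 4).

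FAP, the fibroblast activation protein, which cleaves after proline outside the cell, was at nearly the same level in every backfat library. Values were 110.1, 120.1, 129.5, 114 and 119 CPM in backfat 65, 67, 69, 71 and 72 and 8.33, 28.6, 7.52, 21.8 and 12.2 CPM in liver. Backfat libraries differed little from each other, while liver 67 and liver 71 were above the other 3 liver libraries. The CV in backfat was 6.19%, the lowest of the 8 markers, where the median gene had 23.2%. With means of 119 ± 7.34 CPM in backfat and 15.7 ± 9.20 CPM in liver (SD, n = 5 each), the log2 fold change was 2.92 (SE 0.35, adjusted p = 1.8e-05).

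DPP4, a dipeptidyl peptidase of the cell surface that marks the interstitial progenitor of adipose tissue, went in the other direction and was 44.1 times as high in liver. It had 4.59, 4.78, 4.58, 2.97 and 3.40 CPM in backfat 65, 67, 69, 71 and 72, which was 165 to 407 counts per library. Liver 65, 67, 69, 71 and 72 had 214, 100.3, 202, 216 and 164 CPM. All liver libraries were far above backfat, and liver 67, the liver library with the lowest level of hepatocyte markers, was the lowest of them. Backfat 69, the backfat library with the most hepatocyte markers, lay inside the range of the other backfat libraries. The means were 4.06 ± 0.818 CPM in backfat and 179 ± 48.8 CPM in liver (SD, n = 5 each), a log2 fold change of -5.46 (SE 0.27, adjusted p = 1.5e-08). Without liver 67 the liver mean was 199 ± 23.9 CPM (SD, n = 4). Backfat thus held little DPP4 RNA, and these libraries do not tell which of its cells held it.

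PI16, a secreted CAP-domain protein that marks the same interstitial state as DPP4, was nearer to an even level. It had 12.3, 17.6, 25.6, 11.5 and 10.1 CPM in backfat 65, 67, 69, 71 and 72, and 3.87, 11.7, 2.48, 3.82 and 4.01 CPM in liver. Only liver 67 reached into the range of backfat, and backfat 69 was the highest library of all. The means were 15.4 ± 6.36 CPM in backfat and 5.18 ± 3.71 CPM in liver (SD, n = 5 each), with a log2 fold change of 1.57 (SE 0.41, adjusted p = 0.0062), under the fold threshold. PI16 was called higher in backfat without liver 67, where the log2 fold change was 2.08 (adjusted p = 9.5e-05), and when scaled by library size alone, where it was 2.33. Without both liver 67 and backfat 69 it was 1.86 and not called. Whether the cell make-up of liver 67 had a part in this value was not tested.

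TCF21, a basic helix-loop-helix (bHLH) factor of the mesenchyme of heart, lung, kidney and visceral fat, was found almost entirely in liver. Backfat 65, 67 and 71 had 0 counts, which allows at most 3 counts or 0.0541 CPM per library by counting error, while backfat 69 had 9 counts and backfat 72 had 8, or 0.151 and 0.137 CPM. In liver 65, 67, 69, 71 and 72 its level was 9.38, 22.3, 5.01, 14.7 and 11.01 CPM, from 236 to 826 counts. The tissues were far apart in every boar, and liver 67 was again the highest. The mean in liver was 12.5 ± 6.50 CPM against 0.0577 ± 0.0792 CPM in backfat (SD, n = 5 each), with a log2 fold change of -7.78 (SE 0.87, adjusted p = 9.1e-06). The size of this fold rests on the few counts in backfat. TCF21 could not be tested where 10 counts were required in every library.

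ENG, or endoglin, is a co-receptor for TGF-beta and BMP ligands that is high in endothelium and is used as CD105 to define stromal cells. The level in backfat 65, 67, 69, 71 and 72 was 271, 209.8, 307, 333 and 269.6 CPM, and in liver 139, 178, 138, 265 and 203 CPM. Liver 71 lay inside the range of backfat, so the tissues overlapped. ENG had means of 278 ± 46.3 CPM in backfat and 185 ± 52.7 CPM in liver (SD, n = 5 each), with a log2 fold change of 0.59 (SE 0.23, adjusted p = 0.043), and was not called. Its adjusted p was above 0.05 in 8 of the 10 fits that left out 1 library, up to 0.0985 without liver 69, and was below it without backfat 67 and without liver 71. The adjusted p of edgeR was also above 0.05 with the size factors of DESeq2 (0.063), without mitochondrial genes (0.062) and without both backfat 69 and liver 67 (0.0885). Whether ENG passed the adjusted p thus turned on single libraries and on the processing. Its log2 fold change stayed between 0.50 and 0.73 in the 10 fits that left out 1 library.

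NT5E, the ecto-enzyme CD73 that makes adenosine from AMP, was low in both tissues. It had 6.56, 9.76, 11.7, 7.59 and 8.15 CPM in backfat 65, 67, 69, 71 and 72, and 3.54, 3.32, 3.91, 7.11 and 5.48 CPM in liver. Liver 71 was above the lowest backfat library, and the other 4 liver libraries were below all of backfat. Means of 8.75 ± 2.004 CPM and 4.67 ± 1.603 CPM (SD, n = 5 each) gave a log2 fold change of 0.91 (SE 0.26, adjusted p = 0.011), which was not called. NT5E overlaps a long non-coding RNA on the other strand, and ENG and DPP4 also overlap other genes, FPGS and a long non-coding RNA. Reads were counted without strand, so reads from such partners cannot be told apart.

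**Figure D2:**
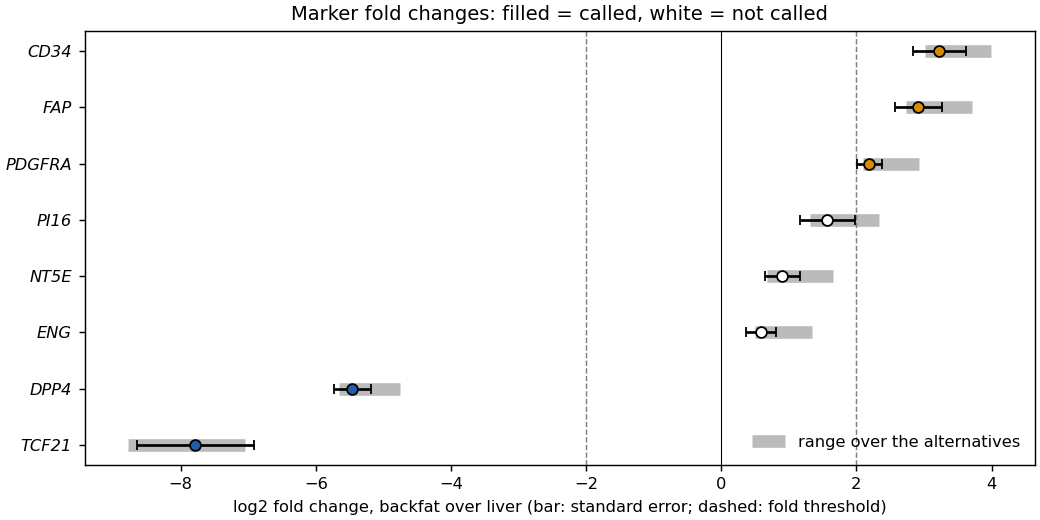
Log2 fold change of each marker, backfat over liver (x axis), with its standard error (black bar) and the range over the alternative settings (grey bar); dashed lines mark a log2 fold change of 2 in either direction. CD34, FAP and PDGFRA are filled orange as called higher in backfat, DPP4 and TCF21 filled blue as called higher in liver, and only the grey bar of PI16 crosses a dashed line.

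Compared between genes per kilobase of exon, the order of the markers differed between the tissues. In backfat ENG (40.8 ± 6.79 CPM per kb), FAP (34.4 ± 2.13) and CD34 (33.4 ± 9.03) were the highest and overlapped each other. PDGFRA followed at 9.44 ± 1.22 CPM per kb, apart from its neighbours, then PI16 (4.41 ± 1.82) and NT5E (4.14 ± 0.949), which overlapped, then DPP4 at 0.929 ± 0.187 and TCF21 at 0.0319 ± 0.0438 CPM per kb (SD, n = 5). In liver DPP4 (41.0 ± 11.2 CPM per kb) and ENG (27.1 ± 7.73) led and overlapped. Below ENG, which was apart from it, came TCF21 at 6.90 ± 3.59 CPM per kb, followed by FAP, CD34, NT5E, PDGFRA and PI16, from 4.56 down to 1.48 CPM per kb, and each of these neighbours overlapped with the next.

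Of the summed level of the 8 markers per kb, ENG took a like share in both tissues, 32.0% ± 3.73 in backfat and 30.1% ± 4.73 in liver (SD, n = 5 each). FAP and CD34 together made most of the rest in backfat, with 27.3% ± 3.23 and 25.9% ± 3.78, and PDGFRA had 7.41% ± 0.426. In liver DPP4 alone had 46.5% ± 13.3, while FAP had 5.06% ± 2.91, CD34 4.02% ± 2.58 and PDGFRA 2.35% ± 0.591. The markers named for the interstitial progenitor in backfat, PI16 and DPP4, had 3.42% ± 1.17 and 0.739% ± 0.189 there.

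**Figure D3:**
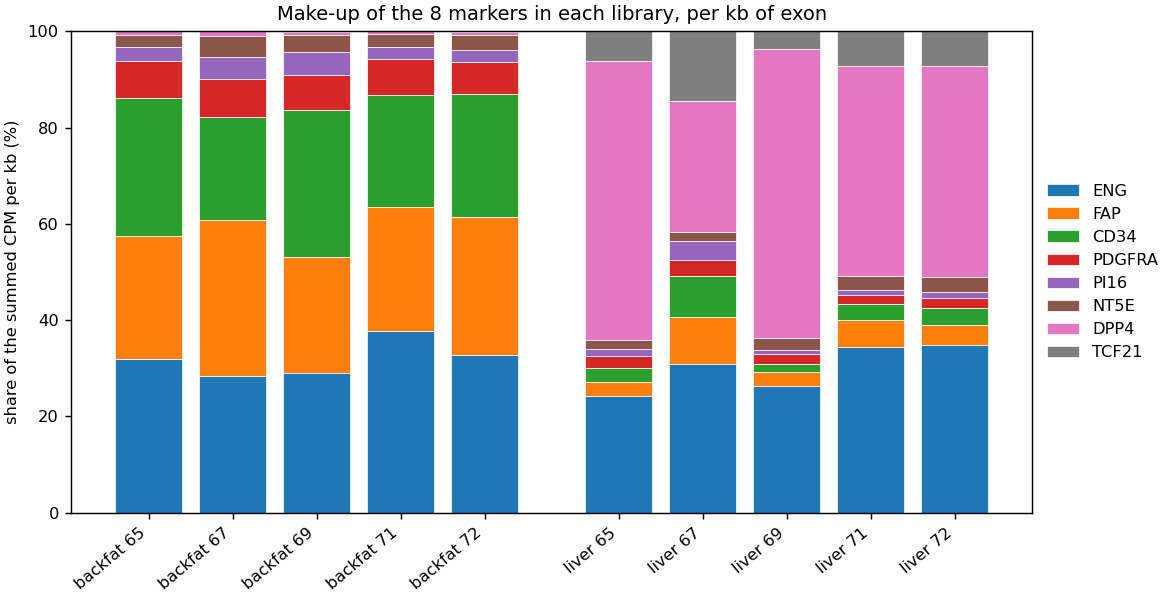
Share of each marker in the summed CPM per kb of exon of the 8 markers (y axis, %), stacked to 100% for each of the 10 libraries. Blue (ENG), orange (FAP) and green (CD34) fill most of every backfat bar, and pink (DPP4) is the widest band of every liver bar but that of liver 67, where ENG is wider.

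The same libraries held the extremes for most markers. Backfat 69 was the highest backfat library for 6 of the 8 markers, and for 5 when scaled by library size alone. In liver, 67 was the highest for 5 (PDGFRA, PI16, CD34, FAP and TCF21) and the lowest for 2 (DPP4 and NT5E), with the same numbers under library size alone. Liver 69 was the lowest for 6 markers, and for 5 under library size alone. In liver 67 the endothelial markers summed to 519 CPM, against 295 to 342 CPM in the other liver libraries, and the mural markers to 234 CPM against 108 to 145 CPM. Backfat 69 likewise had the highest sums of backfat for endothelial (2508 against at most 2355 CPM), mural (892 against 817 CPM) and hepatic stellate markers (550 against 391 CPM). Of the stellate list, RGS5, which mural cells express as well, had the highest mean in backfat (186 CPM). The stellate genes COLEC11 (0.254 CPM) and COLEC10 (0.0625 CPM) were near 0 there, while HGF of the same list had 14.5 CPM. Whether stellate cells had a part in this sum in backfat was not tested. The part of endothelial and mural cells in the levels of the markers that were highest in liver 67 and backfat 69 was not tested.

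Ratios of 2 genes in the same library do not depend on its scaling, and 5 of them were compared by a two-sided exact permutation test over all arrangements of the libraries, with adjustment over the 5. DPP4 and FAP are similar proteases whose genes are both on the minus strand of chromosome 15, DPP4 at 68661764 to 68742961 and FAP at 68831281 to 68902416, with a gap of 88319 bases that holds the glucagon gene GCG. For each FAP read, backfat libraries had 0.0262 to 0.0418 DPP4 reads and liver libraries 3.50 to 26.9. The ranges were far apart, with a difference of -8.55 in the mean log2 ratio. Since neither gene overlapped between the tissues and they went in opposite directions, the ratios had to be apart as well, and no test is given for this pair. Liver 67 had the lowest ratio of liver at 3.50, and the other 4 had at least 9.89. Of the neighbours of the pair, chosen by position, IFIH1 had 20.7 ± 4.53 CPM in backfat and 33.8 ± 17.3 CPM in liver, with a log2 fold change of -0.71 (adjusted p = 0.11, edgeR). GCA had 4.20 ± 0.550 against 14.5 ± 2.61 CPM and was higher in liver by the adjusted p (log2 fold change -1.78, adjusted p = 5.6e-06, edgeR), but was under the fold threshold. The glucagon gene GCG, with at most 57 counts in any library, was not tested.

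Set against PECAM1, a gene of all endothelium, ENG was relatively higher in liver. There were 0.419 to 0.717 ENG reads for each PECAM1 read in backfat and 2.10 to 4.37 in liver, a difference of -2.38 in mean log2 ratio. PECAM1 had at least 376 CPM in backfat and at most 73.4 CPM in liver. ENG had at most 333 CPM in backfat and at least 138 CPM in liver. These ranges alone put the ratios apart, so no test is given for this pair either. All 5 boars had the higher ratio in liver. The adjustment over 5 ratios counted this pair and the DPP4 to FAP pair, whose separation was fixed. The adjusted p-values of 0.17 below are therefore smaller than they would be without these pairs. PECAM1 itself was 529 ± 128 CPM in backfat and 65.1 ± 6.82 CPM in liver (SD, n = 5 each), a log2 fold change of 3.02, while ENG moved by 0.59. The ratio of CD34 to PECAM1 was 0.162 to 0.288 in backfat and 0.0818 to 0.342 in liver, and no difference was found (exact permutation p = 0.32, also after adjustment). PDGFRA to PDGFRB was 0.198 to 0.302 in backfat and 0.108 to 0.246 in liver (adjusted p = 0.17, exact permutation test), and PI16 to PDGFRA was 0.179 to 0.339 in backfat and 0.243 to 0.630 in liver (adjusted p = 0.17, exact permutation test). Of the PI16 to PDGFRA ratios in liver only that of liver 67, 0.630, was above 0.357. With 5 libraries per tissue these 3 comparisons do not show that the ratios are alike.

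**Figure D4:**
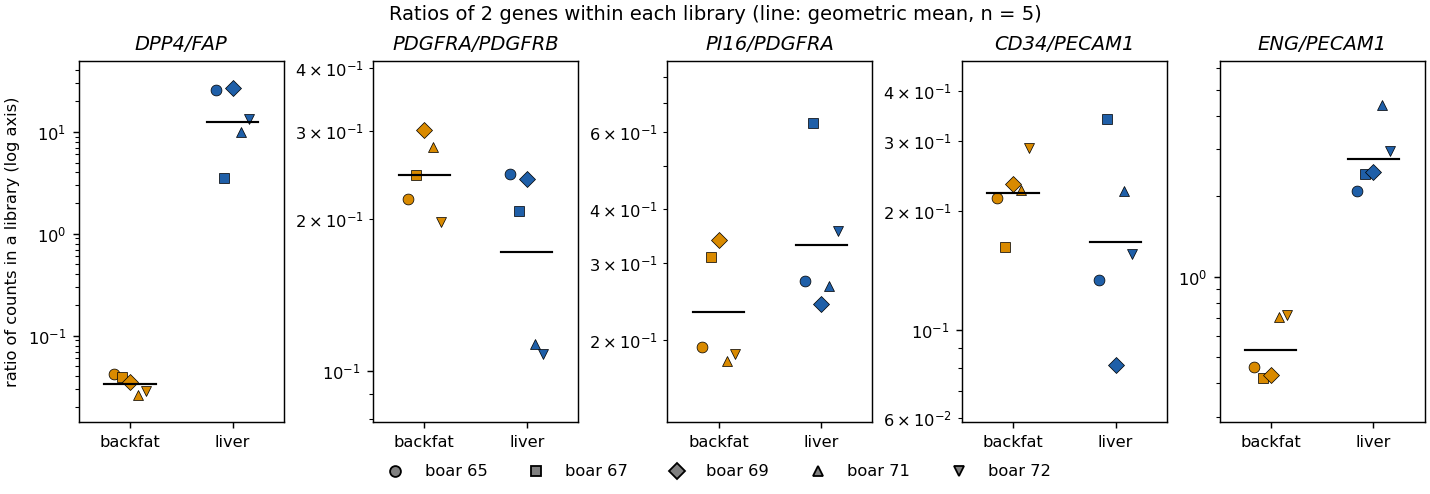
Ratio of the counts of 2 genes in each library (y axes logarithmic and scaled separately) for 5 pairs, with backfat in orange, liver in blue, the shape of a point for the boar and a line for the geometric mean of 5 libraries. DPP4/FAP and ENG/PECAM1 are higher in every liver library than in any backfat library, and the other 3 pairs overlap between the tissues.

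Genes of the pathways in which the markers act were described from lists of known partners. Where 10 counts were required in every library, fewer genes could be tested in some of the lists, and calls fell there. Called higher in backfat were then 5 genes of interstitial progenitors, 3 of committed preadipocytes, 3 of F3-positive stroma and 6 of adipocytes. Among partners and relatives, 2 remained called higher in backfat beside TCF21, 1 beside PI16 and none beside NT5E and DPP4. Called higher in liver were 5 genes of hepatocytes, 3 of stellate cells and 1 of cholangiocytes. None was called higher in liver beside ENG and TCF21 or for sinusoidal endothelium. The calls of the PDGF, fibroblast, endothelial and mural lists did not change. Of the 6 tested PDGF ligands and receptors, 3 were called higher in backfat, with a list median of 1.97 on the log2 scale. The ligand PDGFB (79.1 ± 5.13 against 8.42 ± 2.90 CPM, log2 fold change 3.23) and PDGFRL, a receptor-like protein without a kinase (79.0 ± 5.06 against 14.3 ± 0.873 CPM, 2.47), were the most different, and PDGFA was the least (33.0 ± 5.76 against 24.3 ± 3.34 CPM, 0.44, not called). PDGFRB, the receptor of mural cells, had 255 ± 26.5 CPM in backfat and 84.4 ± 34.5 CPM in liver (SD, n = 5 each). Its log2 fold change of 1.597 was not called, but under library size alone it was 2.38 and called.

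Of 11 ligands, receptors and SMADs of the ENG pathway, 2 were called higher in each tissue and the median was 0.48. Under library size alone 4 were called higher in backfat, and without liver 67 there were 3. GDF2 (BMP9) and BMP10, the ligands that endoglin binds, were found in liver at 15.5 ± 4.68 and 3.97 ± 2.10 CPM (SD, n = 5), and in backfat at 0.0203 ± 0.0393 and 0.00812 ± 0.0112 CPM. The receptors TGFBR3 (113 ± 9.97 against 22.3 ± 1.49 CPM, log2 fold change 2.34) and TGFBR1 (36.5 ± 7.56 against 7.98 ± 0.917 CPM, 2.19) were higher in backfat. Among these 2 and 2 called genes, both that were higher in liver were ligands and both that were higher in backfat were receptors.

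For NT5E the list held enzymes, receptors and transporters of extracellular nucleotides and adenosine, of which 3 of 13 were called higher in backfat and 3 higher in liver (median -0.26). ADORA1, the adenosine receptor of fat cells, had 66.97 ± 14.5 CPM in backfat and 0.112 ± 0.137 CPM in liver. ALPL, a phosphatase that can also release adenosine, had 0.910 ± 0.512 CPM in backfat and 106.3 ± 33.0 CPM in liver, with a log2 fold change of -6.87. Of the 7 tested relatives and partners of DPP4 and FAP, CAV1, a caveolar protein that binds DPP4, was called higher in backfat (94.5 ± 29.8 against 1.45 ± 1.11 CPM, 6.005). The list had 2 genes called, with more genes passing the filter, when backfat 71 or any 1 of the 5 liver libraries was left out, with DESeq2 and with no filter. The cytoplasmic relative DPP9 was at 20.1 ± 3.10 CPM in backfat and 69.9 ± 13.9 CPM in liver, with a log2 fold change of -1.80 that was not called. Apart from CAV1, the log2 fold changes of the list lay between -1.80 (DPP9) and 0.81 (APEH).

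TCF21 acts with other bHLH factors. Of the 8 tested genes of its list, 4 were called higher in backfat and 1 higher in liver (median 2.17). The 4 include a T-box factor, which is not of the bHLH class. The gene higher in liver was HAND2, another bHLH factor of mesenchyme, with 17.9 ± 8.03 CPM in liver and 0.0371 ± 0.0479 CPM in backfat. TWIST2, a bHLH factor of dermal and subcutaneous fibroblasts, went the other way (31.1 ± 14.4 CPM in backfat, 0.214 ± 0.137 CPM in liver, log2 fold change 7.19). TCF3, the common partner of these factors, had nearly the same mean in both tissues (28.6 ± 2.99 against 26.0 ± 3.21 CPM, 0.13, adjusted p = 0.45). Of 6 relatives of PI16, 3 were called higher in backfat (median 2.41), and PI15 had the largest fold change (17.8 ± 8.18 against 0.406 ± 0.350 CPM, 5.41). Of the relatives and partners of CD34, CD164 (251.6 ± 71.4 against 126 ± 41.6 CPM, 1.00) and PODXL2 (1.23) passed the adjusted p alone as higher in backfat, under the fold threshold.

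Genes listed beside the markers that have no identifier were also measured. Of 6 genes listed beside THY1, 1 was called (list median 0.19). It was GPIHBP1, a protein of capillaries that carries LPL, which was higher in backfat (log2 fold change 4.06). Of 5 complement regulators and partners of CD55, 3 were called higher in liver (median -7.59), among them the plasma proteins VTN (-10.71) and C4BPB (-10.08), and the CD55 receptor ADGRE5 was not called (0.14).

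Most genes of the other adipose stroma lists were higher in backfat. Of 13 other interstitial progenitor genes, 10 were called higher in backfat, with a median log2 fold change of 4.10. The matrix protein MFAP5 (115 ± 28.8 against 0.409 ± 0.524 CPM) and the Wnt antagonist SFRP4 (76.5 ± 25.4 against 0.518 ± 0.624 CPM) led the list, and WNT2 stood at the other end with 1.202 ± 1.00 CPM in backfat and 3.46 ± 1.296 CPM in liver, a log2 fold change of -1.53 that was not called. WNT2 was called higher in liver without backfat 69 and liver 67, at -2.04. Of 13 genes of committed preadipocytes, 8 were called higher in backfat (median 3.798), led by the lipase LPL (3299 ± 594 against 0.191 ± 0.163 CPM), while the chemokine CXCL12 had 145 ± 52.3 CPM in backfat and 257 ± 62.2 CPM in liver and was not called. Of 8 genes of the F3-positive stromal cell, 4 were called higher in backfat (median 2.25), and of 12 fibroblast genes 9 (median 4.69), with LUM at 694 ± 228 CPM in backfat and 1.64 ± 0.694 CPM in liver. Mature fat cells share LPL with preadipocytes.

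**Figure D5:**
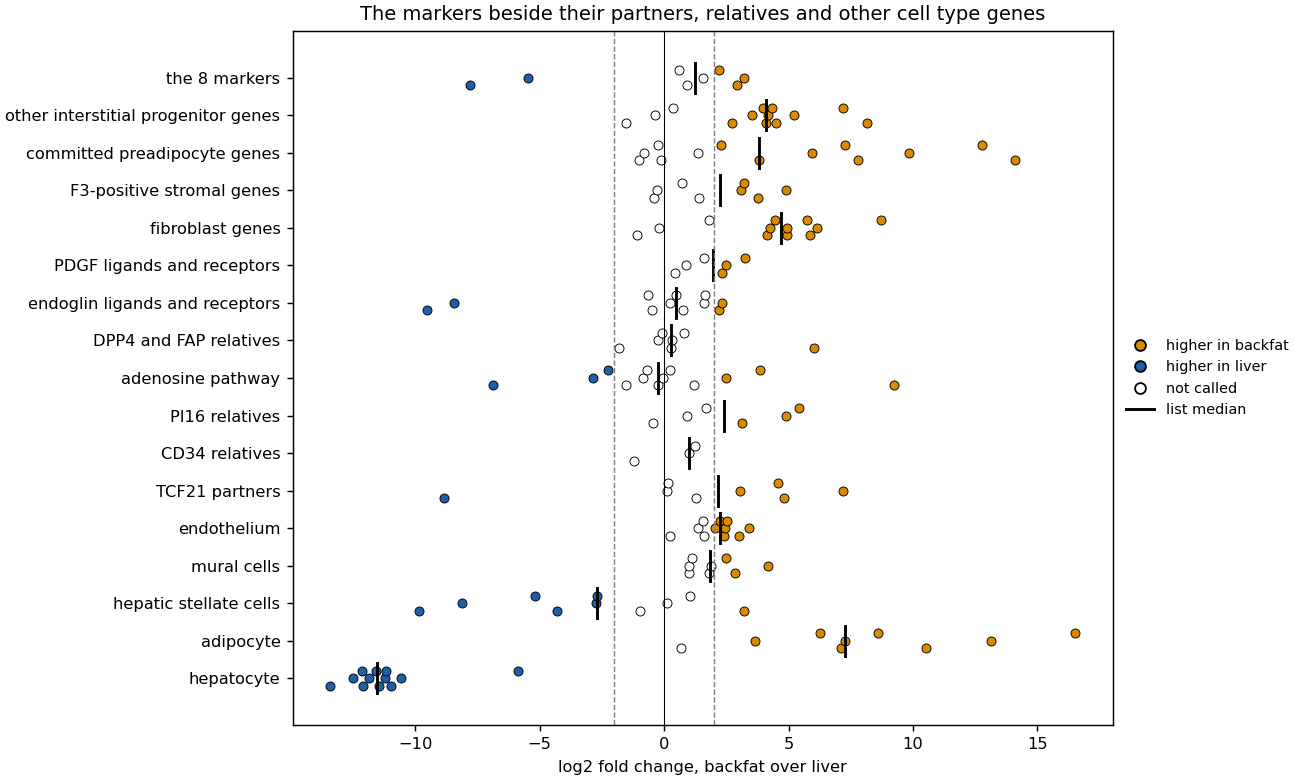
Log2 fold change, backfat over liver (x axis), of every tested gene in the list of the 8 markers and in 16 lists of partners, relatives and cell type genes (y axis), with the list median as a black line and dashed lines at a log2 fold change of 2 in either direction. The markers spread from TCF21 at -7.78 to CD34 at 3.23 around a median of 1.24, while the median of the other interstitial progenitor genes lies at 4.10 and that of the hepatic stellate genes at -2.71.

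Genes of other cell types that carry some of the markers moved with the tissue too. Of 11 endothelial genes, 7 were called higher in backfat (median 2.25), or 10 under library size alone. Leaving out any 1 of backfat 65, backfat 69, liver 67 and liver 71 gave 6. The summed level of the list was 1533 to 2508 CPM in backfat and 295 to 519 CPM in liver. Of 8 mural cell genes, 3 were called higher in backfat (median 1.85), or 4 without liver 67 and 5 under library size alone, with sums of 684 to 892 CPM and 108 to 234 CPM. Of 10 hepatic stellate cell genes, 6 were called higher in liver, among them the collectin COLEC11 (0.254 ± 0.273 against 69.1 ± 21.4 CPM), and RGS5, which mural cells express as well, was called higher in backfat (186 ± 72.2 against 19.9 ± 13.2 CPM). The sums of that list, 211 to 550 CPM in backfat and 191 to 306 CPM in liver, overlapped. Of the remaining lists, sinusoidal endothelium had 2 of 6 tested genes called higher in liver, mesothelium 2 of 3 and macrophage 3 of 10. Cholangiocyte had 4 of 5, or 5 without backfat 69. Lymphocyte had 1 of 10, which was not called under library size alone. Of 5 skeletal muscle and 4 red cell genes, 0 were called by edgeR or DESeq2 and 0 had an unadjusted p under 0.05, but limma-voom, the boar as a block and the fit without liver 67 each called 4 muscle genes higher in backfat, and without backfat 65 there were 2 red cell genes called higher in liver. The part of each of these cell types in the levels of PDGFRA, CD34, ENG and TCF21 was not tested.

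The 5 genes with a symbol whose log2 CPM was most like that of PDGFRA over the 10 libraries were MEOX2 (Pearson's r = 0.994), EMCN (0.994), BTNL9 (0.993), PRKD1 (0.993) and ZNF423 (0.993). All were higher in backfat, from a mean log2 fold change of 2.26 for PRKD1 to 6.77 for BTNL9. As the 10 points fall into 2 tissues, these values describe the difference between the tissues together with the order inside them. MEOX2 and ZNF423 are transcription factors that stood in the lists of F3-positive stroma and committed preadipocytes, and EMCN is a sialomucin of endothelium.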

How the data were processed

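Total RNA from both tissues of 5 boars gave 10 RNA-seq libraries. The authors trimmed the reads, used HISAT2 for alignment to the genome build Sscrofa11.1 and counted pairs of reads with featureCounts 2.0.1 and the annotation of Ensembl release 99, over exons and without strand, and per the file headers the deposited values are raw read counts per gene beside the exon length. The authors did not normalize them. The 10 WGBS libraries were not used here, since their calls carry no genomic position.

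Counts were analysed with edgeR 4.0.16 in R 4.3.3: filterByExpr with tissue as group, TMM, and the quasi-likelihood test with tissue as the only term over 16275 genes, adjusted by Benjamini-Hochberg. This test gave the adjusted p-values printed with fold changes. Calls required an adjusted p no higher than 0.05 with a log2 fold change that reached 2 in size, as in the study. Standard errors were taken from the fold change and the F statistic. CPM used TMM. Sums over marker lists are CPM of all counts, without TMM. Ratios used counts plus 0.5. Intervals and floors (3 counts for a count of 0) cover counting error only. Between 43820042 and 61772737 counts per library mean that the spread between boars, and not depth, sets the precision for the markers other than TCF21 in backfat.

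Genes were matched by Ensembl identifier. Promoter windows, coordinates and exons are from RefSeq annotation release 106 of Sscrofa11.1. The fits were tested on simulated counts. Alternatives were DESeq2 1.42.0, limma 3.58.1 (voom), other normalizations and filters, the boar as a block, leaving out libraries, leaving out mitochondrial genes and the adjusted p alone. The genes named are the markers, those with the 2 largest and 2 smallest log2 fold changes of each list, PDGFRB, PECAM1, the 5 genes most correlated with PDGFRA on log2(CPM + 0.5), and the neighbours of DPP4 and FAP. Not every gene that the rule allows is described, and 1 is not reported here. The markers, lists and libraries set apart were chosen with earlier results of these data known.

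Each library comes from 1 tissue of 1 boar, and boars were taken from the column names, since the replicate numbers of the labels could not be matched to them. Same-numbered libraries come from the same boar. The correlation of their deviations from the tissue means was 0.235, 0.108, 0.0479, 0.156 and 0.0916 for boars 65, 67, 69, 71 and 72.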

Additional observations from a re-analysis of the deposited data

Results flagged for a closer look

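PI16 in liver was set apart by 1 library, liver 67, with 11.7 CPM against 2.48 to 4.01 CPM in the other 4. Its gap to the nearest library was 0.834 of the range of all 5, above Dixon's critical value of 0.71. Of 26 groups of 5 libraries checked this way, markers and ratios in each tissue, this was the only one marked, and chance would mark about 1.3. Liver 67 was also the library with the most mitochondrial counts and the most muscle, red cell, endothelial, mural cell, cholangiocyte and lymphocyte markers of the liver libraries, and the part of these in the PI16 value was not tested.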

How the results depend on the processing

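No marker, named partner gene or ratio changed direction under any alternative. Of 159 alternative values for the single markers, 154 kept their side of the thresholds and 5 were newly called: PI16 under library size alone (2.33) and without liver 67 (2.08), and PI16, NT5E and ENG when the adjusted p was used alone. The number of markers higher in backfat was 3 and rose to 6 at the adjusted p alone, and it stayed at 3 or 4 under the other alternatives. Markers higher in liver were 2, and 1 where 10 counts were required in every library, since TCF21 then could not be tested. Listed genes called higher in liver were 39, with 21 under that filter, since fewer genes were tested, and 61 at the adjusted p alone. The replicate block, with the boar as the pair, left the calls of the markers at 3 and 2 and changed no call of a marker. For the DPP4 to FAP ratio the difference was -9.02 without backfat 69 and liver 67 and -8.55 with libraries paired by the block, a pair of genes for which the separation was fixed by the calls of both. For the ENG to PECAM1 ratio these were -2.35 and -2.38, and the separation of this pair was fixed by the ranges of both genes. The ratio of THY1 to PDGFRA was not run. Among the markers depth limits TCF21, whose fold rests on at most 9 counts per backfat library, and among the partners it limits those near 0 in a tissue, such as GDF2, BMP10 and HAND2 in backfat.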
